A study of Homo sapiens with 6 samples.

Results

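The 10 genes described here encode spindle and cleavage furrow proteins that are not motors: ANLN, ECT2, RACGAP1, PRC1, TPX2, HMMR, NUSAP1, DLGAP5, CKAP5 and ASPM. They were taken by symbol from a gene count table of 19863 rows, and all 10 had a row and passed the filter on low counts. The cells were NGP, an established human neuroblastoma line with amplified MYCN, grown in medium with fetal bovine serum. In the treated group they received OTSSP167 at 60 nM for 12 h, and in the control group the same volume of the solvent DMSO. OTSSP167 is a kinase inhibitor that the series title names as an inhibitor of CAMKV, and the question was which transcripts differ between the 2 groups. Each group held 3 libraries of 1 cell line, and the labels leave unsaid whether these were separate cultures. The p-values thus reflect the variation among these 6 libraries, which may be technical.

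In dividing cells these proteins build the mitotic spindle and then split the cell. TPX2, HMMR, NUSAP1, DLGAP5, CKAP5 and ASPM nucleate, bundle, lengthen or focus spindle microtubules. In anaphase PRC1 crosslinks the antiparallel microtubules of the midzone, and RACGAP1, ECT2 and anillin place active RhoA and the contractile ring at the cell equator. Their transcripts belong to the G2/M programme, which is low in resting cells and is read through promoter elements named CHR and CCAAT by the MuvB complex with its partners MYBL2 and FOXM1, and by NF-Y.

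Library totals ran from 46230392 to 50810126 counts in DMSO and from 36401828 to 57460375 in OTSSP167. Levels are CPM (a gene's counts relative to the total of its library) scaled between libraries, so a rise or fall is relative to the other RNA. Fewer dividing cells and less RNA per dividing cell cannot be told apart in such bulk samples. HAND2, a transcription factor of sympathetic neuroblasts, stood at 396.3 to 599.0 CPM in DMSO and 432.0 to 468.7 in OTSSP167, while TH, the first enzyme of catecholamine synthesis, was at most 0.410 CPM in any library. The summed level of 6 immune markers was 1.58 to 1.94 CPM in DMSO and 19.4 to 21.9 in OTSSP167, with CD3E at 0 in all 6 libraries, and 2 of the 3 tested were higher. For 7 Schwann and glial markers the sums were 5.38 to 6.56 and 6.91 to 10.5 CPM with SOX10 at 0 (2 of 4 tested higher, 2 lower). For 8 fibroblast and endothelial markers they were 119.7 to 140.5 and 126.6 to 127.1 CPM with DCN at 0 (1 of 5 tested higher, 2 lower). The part of these shifts in the results was not tested.

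The promoters are shown because the 10 genes share a cell cycle programme, and the CHR element TTTGAA is the letter string known for it. Windows from 250 bases before to 50 after the RefSeq start (GRCh38.p14) were examined for 8 of the 10 genes, and those of RACGAP1 and TPX2 were not analysed here. TTTGAA occurred on either strand in the windows of all 8, against 15.2% of 35116 windows in the whole table. CCAAT, the NF-Y box, occurred in 7 of the 8, against 34.6% of windows, and ANLN was the one without it. The rarer string TTCGAA occurred in 0 of the 8 and in 1.45% of windows. These matches are a description of letters, not of binding. The 26 bases around the TTTGAA nearest the start are set out below on the gene's own strand, with the motif in capitals (TTCAAA is the same motif on the other strand).
ANLN: gaaattcaaaTTTGAAcggctgcaga
ECT2: cagcttagttTTTGAAtcggttgtgg
PRC1: cgtggcgcggTTTGAAattttgcggg
HMMR: gagatttgaaTTTGAAaccggtaggg
NUSAP1: gcgccagggaTTTGAAccgcgctgac
DLGAP5: gtgcggcaagTTTGAAtttcgtggag
CKAP5: cccaagcggtTTCAAAcggcttagag
ASPM: gatgcaatcaTTCAAAtgaagcgccg

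The first base of that motif lay 20 bases before the start in ANLN and PRC1 and 22 before it in HMMR. It lay 113 bases before the start in ASPM and 4 to 35 bases after it in DLGAP5, NUSAP1, CKAP5 and ECT2. For ECT2 that position counts from the upstream RefSeq start, and a window at a downstream start was also examined. From the downstream start its TTTGAA motifs lay at -242 and -182, and that window held no CCAAT. HMMR carried a second copy directly before the first, and ANLN an inverted copy directly before it. The whole windows of HMMR, whose transcript fell, and PRC1, whose transcript rose, follow with TTTGAA and CCAAT on either strand in capitals. They are chr5:163460382-163460681 on the plus strand and chr15:90994486-90994785 on the minus strand.
HMMR: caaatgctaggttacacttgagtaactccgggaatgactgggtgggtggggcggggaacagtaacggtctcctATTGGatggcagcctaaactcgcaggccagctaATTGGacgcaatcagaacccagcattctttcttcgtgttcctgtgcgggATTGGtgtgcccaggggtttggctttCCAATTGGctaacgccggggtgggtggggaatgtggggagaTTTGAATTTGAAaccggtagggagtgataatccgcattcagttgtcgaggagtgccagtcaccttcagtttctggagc
PRC1: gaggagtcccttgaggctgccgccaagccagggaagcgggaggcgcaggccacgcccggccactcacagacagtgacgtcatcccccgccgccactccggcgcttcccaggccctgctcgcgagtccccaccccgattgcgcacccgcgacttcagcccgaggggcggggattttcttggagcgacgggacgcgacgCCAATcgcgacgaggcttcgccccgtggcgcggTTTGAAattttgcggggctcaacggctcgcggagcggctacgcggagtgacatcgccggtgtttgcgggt

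HMMR held 2 copies of TTTGAA and 5 of CCAAT, of which a pair share bases in the run CCAATTGG. PRC1 held 1 of each. Both windows hold TTTGAA within 28 bases before the start. Those of ECT2, whose transcript also fell, hold none there, with TTTGAA at -115 and 35 from the upstream start. Whether motif position goes with the direction of change was not tested.

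Of the 10 transcripts, 2 were lower with OTSSP167 and 1 was higher, and 7 did not pass edgeR's quasi-likelihood test at an adjusted p of 0.05 over 14402 genes. HMMR and ECT2 fell and PRC1 rose. Of all genes tested, 46.1% passed, 23.8% higher and 22.3% lower, so 3 of 10 is not above the share of all genes. The median log2 fold change of the 10 was -0.11, against 0.01 for all genes tested. Against a change beyond 1.5-fold (edgeR's glmTreat), 0 of the 10 passed, where 19.6% of all genes did. At an unadjusted glmTreat p under 0.05 the count was 1, HMMR, against 30.0% of genes, and no other tool was run on that question. HMMR, ECT2 and PRC1 showed no overlap between treated and control libraries, which was the case for 60.4% of all genes.

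**Figure D1:**
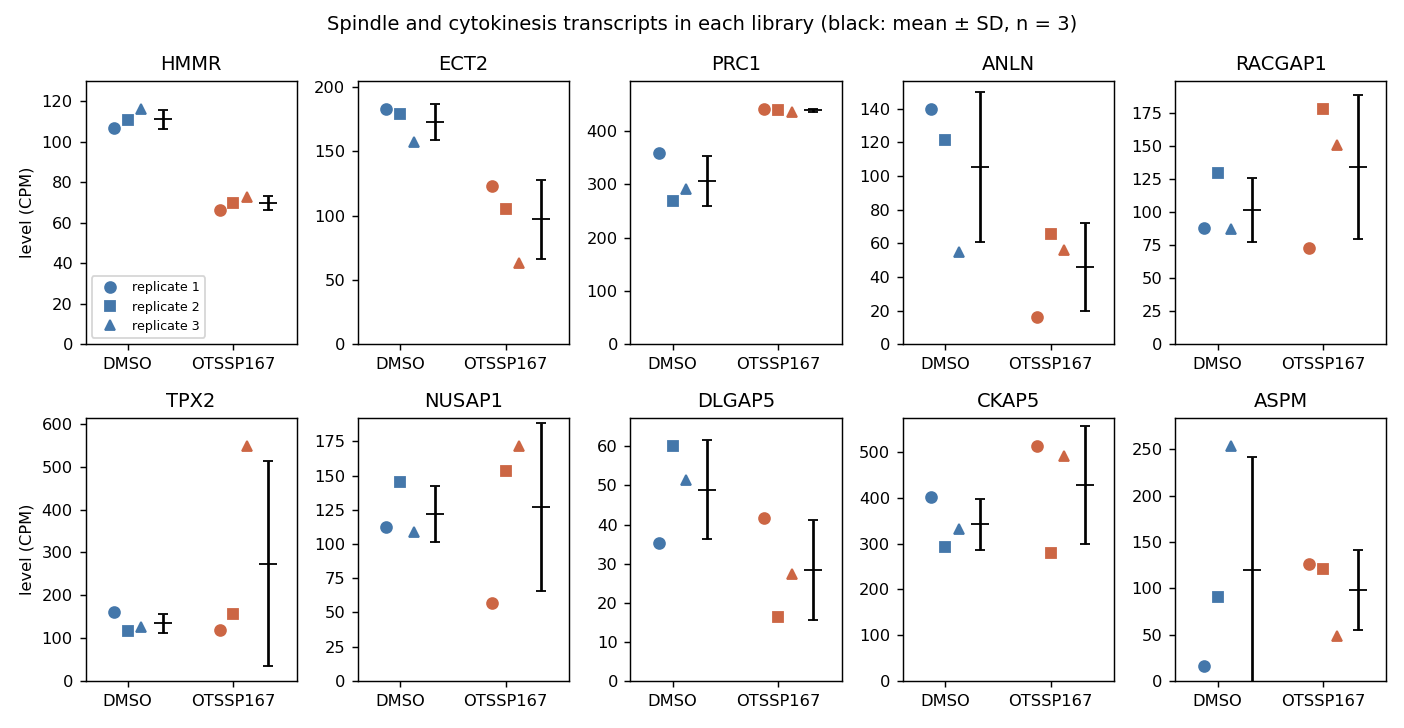
Level in CPM (vertical axis, from 0) of each transcript in the 3 DMSO and 3 OTSSP167 libraries, with marker shape giving the replicate number and black bars the mean ± SD. HMMR, ECT2 and PRC1 separate the groups, whereas the other panels show overlapping groups, with single libraries far from their group in TPX2 and ASPM.

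At the cleavage furrow, ECT2 fell while ANLN and RACGAP1 did not pass. ECT2 (chromosome 3, 172750682 to 172821474), the exchange factor that loads RhoA with GTP at the equator, measured 182.6, 178.9 and 156.9 CPM in DMSO and 122.7, 104.8 and 63.5 CPM in OTSSP167. The lowest DMSO library lay above the highest treated one, and the treated libraries spread more widely than the controls. The means were 172.8 ± 13.9 and 97.0 ± 30.4 CPM (SD, n = 3), a log2 fold change of -0.83 (SE 0.25, 95% interval -1.46 to -0.21, edgeR adjusted p = 0.0407). This call was lost without DMSO replicate 1 (edgeR adjusted p = 0.1003), DMSO replicate 2 (0.0979), DMSO replicate 3 (0.0694) or OTSSP167 replicate 2 (0.0822), and with upper-quartile scaling (0.0574); all its alternatives together gave 0.00830 to 0.1003.

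ANLN (chromosome 7, 36389806 to 36453791) encodes anillin, the scaffold that ties RhoA, actin, myosin and septins together in the ring. It stood at 139.7, 121.4 and 54.7 CPM in DMSO and at 16.0, 65.7 and 56.2 CPM in OTSSP167. DMSO replicate 3 was as low as OTSSP167 replicates 2 and 3, so the groups overlapped. The estimate of -1.19 was the lowest of the 10, with a 95% interval from -2.74 to 0.35 (SE 0.62, edgeR adjusted p = 0.169). It was -0.79 without OTSSP167 replicate 1 and -1.54 without OTSSP167 replicate 2. RACGAP1 (chromosome 12, 49976923 to 50033136), the GTPase-activating subunit of centralspindlin that docks ECT2 on the midzone, measured 88.4, 129.8 and 87.3 CPM in DMSO and 73.0, 178.1 and 151.2 CPM in OTSSP167. One treated library lay below all controls and the other two above them. Its log2 fold change was 0.40 (SE 0.36, 95% interval -0.51 to 1.31, edgeR adjusted p = 0.415), with 0.14 without OTSSP167 replicate 2 and 0.69 without OTSSP167 replicate 1.

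PRC1 (chromosome 15, 90966038 to 90995629), the crosslinker of midzone microtubules, was the member that rose. It measured 358.4, 268.1 and 290.9 CPM in DMSO and 440.9, 439.7 and 435.4 CPM in OTSSP167. The treated libraries lay within a ratio of 1.01 of each other, the tightest of the 10 genes, and all lay above the controls. The means were 305.8 ± 46.9 and 438.7 ± 2.86 CPM (SD, n = 3), a 1.43-fold rise (log2 fold change 0.52, SE 0.11, 95% interval 0.25 to 0.80, edgeR adjusted p = 0.0131). Without DMSO replicate 3 the adjusted p was 0.0501, and PRC1 passed under its other alternatives (down to 0.000239).

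Among the spindle microtubule proteins, HMMR fell with little spread. HMMR (chromosome 5, 163460203 to 163491945) encodes RHAMM, a hyaluronan-binding protein that also acts at spindle poles with TPX2. It measured 106.7, 110.6 and 116.1 CPM in DMSO and 66.2, 69.9 and 72.9 CPM in OTSSP167. The groups were separated by more than the range within either. The log2 fold change was -0.67 (SE 0.06, 95% interval -0.83 to -0.52, edgeR adjusted p = 0.000744), and the call held under all 14 alternatives, with estimates from -0.71 to -0.57.

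TPX2, NUSAP1 and DLGAP5 are released from importins by Ran around chromosomes. TPX2 (chromosome 20, 31739271 to 31801805), the activator of Aurora A, measured 160.1, 115.5 and 126.9 CPM in DMSO and 117.8, 155.9 and 548.8 CPM in OTSSP167. OTSSP167 replicates 1 and 2 lay within the DMSO range and replicate 3 stood far above it. The estimate of 1.03 (95% interval -0.53 to 2.59, edgeR adjusted p = 0.230) became 0.03 without OTSSP167 replicate 3. NUSAP1 (chromosome 15, 41332694 to 41381050), which bundles microtubules near chromosomes, measured 112.4, 145.7 and 108.5 CPM in DMSO and 57.2, 153.1 and 171.7 CPM in OTSSP167. The treated libraries lay on both sides of the controls, and the estimate was 0.06 (95% interval -0.99 to 1.11, edgeR adjusted p = 0.919). DLGAP5 (chromosome 14, 55148112 to 55191678), known as HURP, stabilises kinetochore fibres. It measured 35.2, 60.1 and 51.5 CPM in DMSO and 41.7, 16.2 and 27.4 CPM in OTSSP167. DMSO replicate 1 lay below OTSSP167 replicate 1, and the estimate was -0.78 (95% interval -1.76 to 0.19, edgeR adjusted p = 0.158). Without OTSSP167 replicate 2 it was -0.50, and without OTSSP167 replicate 1 it was -1.17.

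CKAP5 (chromosome 11, 46743048 to 46846308), the microtubule polymerase chTOG, measured 402.8, 292.7 and 332.0 CPM in DMSO and 513.4, 279.9 and 491.8 CPM in OTSSP167. OTSSP167 replicate 2 was the lowest of all 6 libraries and the other treated libraries the highest. The estimate was 0.32 (95% interval -0.33 to 0.98, edgeR adjusted p = 0.357), and without OTSSP167 replicate 2 it was 0.55 and passed (adjusted p = 0.0408). ASPM (chromosome 1, 197084128 to 197146694), which focuses microtubules at spindle poles and is known as a microcephaly gene, measured 16.2, 91.0 and 253.7 CPM in DMSO and 126.0, 120.9 and 48.3 CPM in OTSSP167. The controls alone covered the whole range of the treated libraries. Its estimate of -0.29 had an interval from -2.68 to 2.11 (edgeR adjusted p = 0.826) and became 0.87 without DMSO replicate 3.

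**Figure D2:**
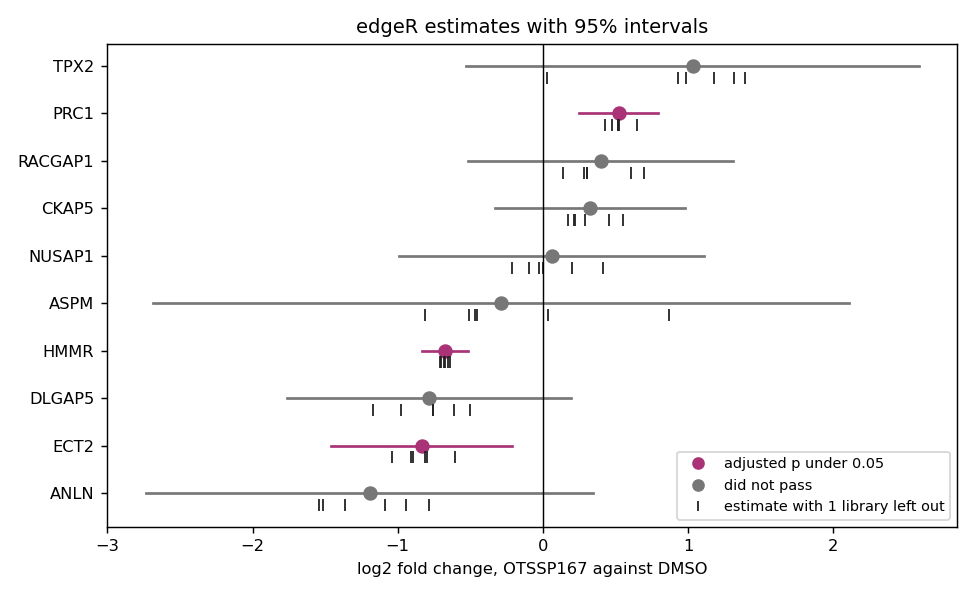
Log2 fold change of OTSSP167 against DMSO for each transcript (points) with its 95% interval (lines) and the estimates after leaving out 1 library (ticks). The intervals of HMMR, ECT2 and PRC1 lie to one side of 0, and those of the other 7 cover 0, with that of ASPM from -2.68 to 2.11 the widest.

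The intervals of the 7 transcripts that did not pass allow changes of more than 1.5-fold. Even CKAP5, the narrowest of them, allowed a rise to 1.97-fold, and ASPM allowed values from 0.156- to 4.30-fold. A missing call among them therefore does not show that a transcript stayed level.

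Spread between replicate libraries differed widely among the 10. The highest library exceeded the lowest by at least 2-fold within a group in 6 of the 10, ANLN, RACGAP1, TPX2, NUSAP1, DLGAP5 and ASPM. The same held for 21.4% of the 9201 genes of at least 10 CPM, whose median ratio was 1.31. In DMSO, ASPM reached a ratio of 15.7, above 99.6% of those genes, on 828 counts in the lowest library and 11748 in the highest. In OTSSP167 the ratios were 4.66 for TPX2 and 4.10 for ANLN, above 97.0% and 96.2% of genes. HMMR stood at 1.09 and 1.10 in the 2 groups, below the median of all genes in both. The outlying library was shared by some of these genes and differed in others. OTSSP167 replicate 1 was the lowest of its group for ANLN, RACGAP1 and NUSAP1. DMSO replicate 1 was lowest for ASPM, OTSSP167 replicate 2 lowest for DLGAP5 and OTSSP167 replicate 3 highest for TPX2. Counting error is small at these counts, and the source of this spread was not tested.

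**Figure D3:**
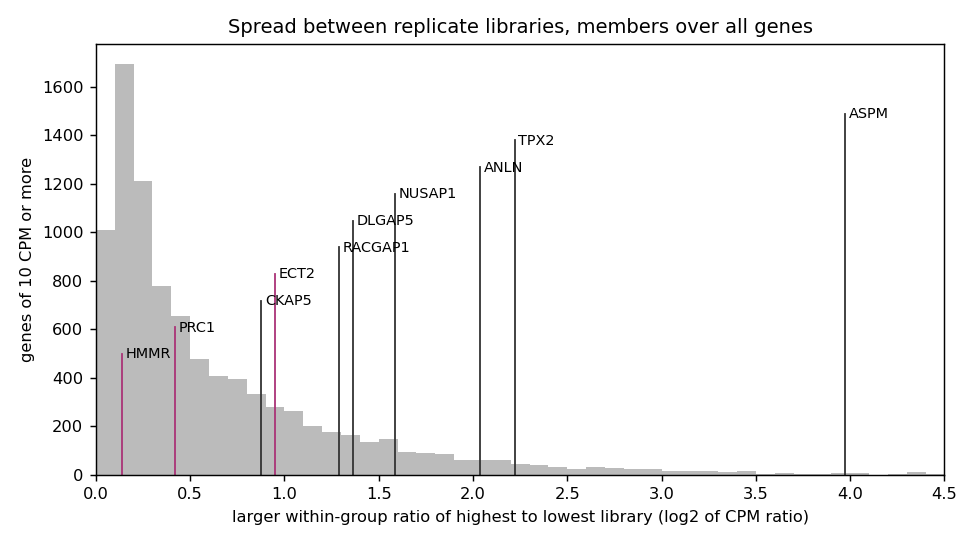
Number of genes of 10 CPM or more (grey bars) by the larger within-group ratio of highest to lowest library on a log2 axis, with the 10 transcripts as lines (purple where adjusted p was under 0.05). HMMR and PRC1 lie near the bulk of genes, and ANLN, TPX2 and ASPM lie in the right tail.

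The summed level of the 10 was 1565 ± 45.9 CPM in DMSO and 1742 ± 281.5 CPM in OTSSP167 (SD, n = 3). OTSSP167 replicate 3 alone stood apart, at 2067 CPM against 1514 to 1602 in the other 5 libraries, and it is the library with high TPX2. For the order of levels, CPM were divided by exon length in kb. PRC1 was highest in both groups, at 72.6 ± 11.1 CPM per kb in DMSO and 104.1 ± 0.679 in OTSSP167 (SD, n = 3). In DMSO it was followed by NUSAP1 (49.8), CKAP5 (45.8), TPX2 (37.2), ECT2 (34.7), HMMR (32.2), RACGAP1 (24.7), ANLN (20.3), DLGAP5 (15.3) and ASPM (11.0 CPM per kb). Apart from PRC1 over NUSAP1, each neighbouring pair in that order overlapped in its libraries. In OTSSP167 the last places were held by ASPM, DLGAP5 and ANLN, at 9.04, 8.90 and 8.86 CPM per kb, and only the step from ECT2 down to ASPM was free of overlap.

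Several members overlap other annotated loci or have pseudogenes, which limits their counts. For overlaps on the opposite strand this depends on the strand setting, which is unknown. The sizes given are of whole gene spans, introns included, and not of shared exons. In GENCODE 29 PRC1 overlaps PRC1-AS1 over 22280 bp and HMMR overlaps HMMR-AS1 over 8881 bp on the opposite strand. PRC1 and NUSAP1 overlap a second protein-coding annotation on their own strand, over 29440 and 48050 bp. ANLN shares 320 bp with KIAA0895 and RACGAP1 217 bp with AQP6, both on the opposite strand. RACGAP1 and DLGAP5 each have 1 processed pseudogene. Reads of these loci were not analysed here.

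Ratios of transcripts whose proteins bind each other do not depend on the scaling between libraries. Of such pairs, 6 were compared with an exact 2-sided permutation test over the 6 libraries, which cannot go below p = 0.1. PRC1 counts were 3.58, 2.75 and 2.79 times those of KIF4A, the kinesin that PRC1 brings to the midzone, in DMSO and 6.47, 6.98 and 7.14 times in OTSSP167. The groups did not overlap, and the mean log2 ratio was 1.18 higher with OTSSP167 (exact p = 0.1, the smallest possible, 0.3 adjusted over 6 pairs). Both partners moved, since KIF4A itself fell from 100.6 ± 3.40 to 64.0 ± 3.70 CPM (n = 3, log2 fold change -0.65, edgeR adjusted p = 0.000989).

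HMMR counts were 0.666, 0.958 and 0.915 times those of TPX2 in DMSO and 0.562, 0.448 and 0.133 times in OTSSP167, also without overlap (exact p = 0.1, 0.3 adjusted over 6 pairs). The OTSSP167 minus DMSO difference in mean log2 ratio was -1.37, and -0.74 without OTSSP167 replicate 3. The log2 ratio of ECT2 to RACGAP1 was 1.21 lower with OTSSP167 on average, but replicate 1 stayed within the DMSO range (exact p = 0.2). That difference was -0.79 without OTSSP167 replicate 3 and -1.79 without OTSSP167 replicate 1. The ratios of CKAP5 to TACC3 (exact p = 0.4), RACGAP1 to its centralspindlin partner KIF23 (exact p = 0.8) and TPX2 to AURKA (exact p = 1) overlapped between groups. TACC3, which anchors CKAP5 on spindle microtubules, rose from 114.1 ± 5.90 to 181.0 ± 6.80 CPM (n = 3, log2 fold change 0.67, edgeR adjusted p = 0.000508), whereas KIF23 (0.29) and AURKA (0.29) did not pass the test (adjusted p = 0.467 and 0.212).

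**Figure D4:**
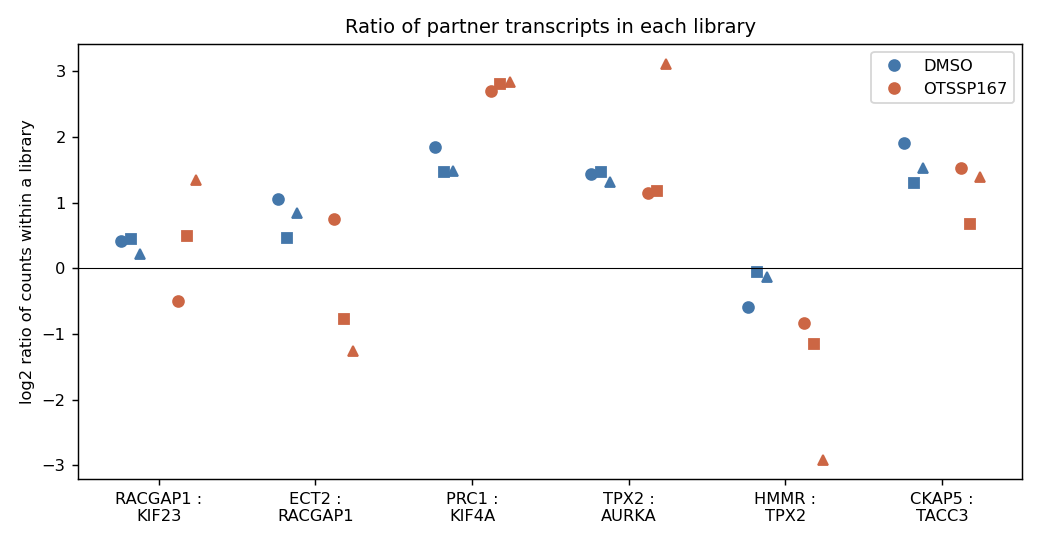
Log2 ratio of the counts of partner transcripts in each library (circles, squares and triangles are replicates 1, 2 and 3). PRC1 to KIF4A was higher in all 3 treated libraries than in any control (exact p = 0.1, the smallest possible), whereas the other ratios overlap or come close, with OTSSP167 replicate 3 far out for TPX2 to AURKA and HMMR to TPX2.

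Other genes of the same machinery moved in both directions, as did all genes tested, of which 23.8% rose and 22.3% fell. The counts called in the lists below stand beside those shares, and no list test was made. Of the named genes checked for pseudogenes in GENCODE 29, PFN1 has 10, SEPT7 9, RBBP4 6, MYL6 5, KPNA2 3, MAPRE1 2 and CKAP2 1. Their counts are uncertain where reads could be divided. TFDP1, CSE1L and RANBP1 have 0, and the other genes named outside the members were not checked. Of 25 further spindle microtubule proteins, 3 rose and 3 fell, with a median log2 fold change of 0.21. CKAP2, a microtubule-stabilising spindle protein, rose by 0.68 and TACC3 by 0.67, while MAPRE1, the plus-end tracker EB1, fell by 0.29. Of 16 gamma-tubulin ring and augmin genes, which nucleate microtubules, 3 rose and 3 fell (median -0.29). The augmin subunit HAUS2 rose by 0.82 and the ring subunit TUBGCP4 by 0.81, while TUBGCP2 fell by 0.77 on the log2 scale.

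Of 25 tested genes of the cleavage furrow, 9 fell and 3 rose (median -0.16), where 22.3% of all genes tested fell and 23.8% rose. MYL6, a myosin light chain, fell from 214.5 ± 6.40 to 123.9 ± 1.63 CPM (n = 3, edgeR adjusted p = 9.23e-05), and PFN1, the actin monomer-binding profilin, fell by 0.42. SEPT7, a septin, rose from 49.7 ± 4.46 to 202.2 ± 6.93 CPM (n = 3, log2 fold change 2.02, edgeR adjusted p = 4.81e-05). Of 19 abscission genes, 5 rose and 5 fell (median 0.17). The ESCRT-III genes CHMP1A and IST1 rose by 0.68 and 0.59. KIF20B, a kinesin of late cytokinesis, fell from 90.5 ± 22.2 to 14.4 ± 3.76 CPM (n = 3, log2 fold change -2.65, SE 0.28, edgeR adjusted p = 0.00121). Of 8 Ran and importin genes, which control TPX2, NUSAP1 and DLGAP5, 4 fell and 1 rose (median -0.10). CSE1L, the exporter that recycles importin alpha, fell from 488.2 ± 16.2 to 144.3 ± 10.3 CPM (n = 3, edgeR adjusted p = 4.08e-05), RANBP1 fell by 0.29 and the importin alpha gene KPNA2 rose by 0.42.

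Of 16 genes of G2/M transcription factors, 5 rose and 3 fell (median 0.19). The list holds factors that read CHR and CCAAT elements and also E2F genes and their partners. FOXM1 rose from 96.7 ± 18.6 to 204.3 ± 18.2 CPM (n = 3, log2 fold change 1.08, SE 0.16, edgeR adjusted p = 0.00372), whereas MYBL2 fell by 0.28 (edgeR adjusted p = 0.00104). LIN54, the MuvB subunit that contacts the CHR, was at 0.43 and did not pass (edgeR adjusted p = 0.178). RBBP4 rose by 0.08 and TFDP1, the E2F partner, fell by 1.52. Of 20 genes of mitotic entry and exit, 6 rose and 2 fell (median 0.27). TOP2A rose by 1.00 and AURKB by 0.92, and the checkpoint kinase BUB1 fell by 1.96 on the log2 scale. No list test was made, and the shares called stand beside the 46.1% of all genes (23.8% higher, 22.3% lower).

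**Figure D5:**
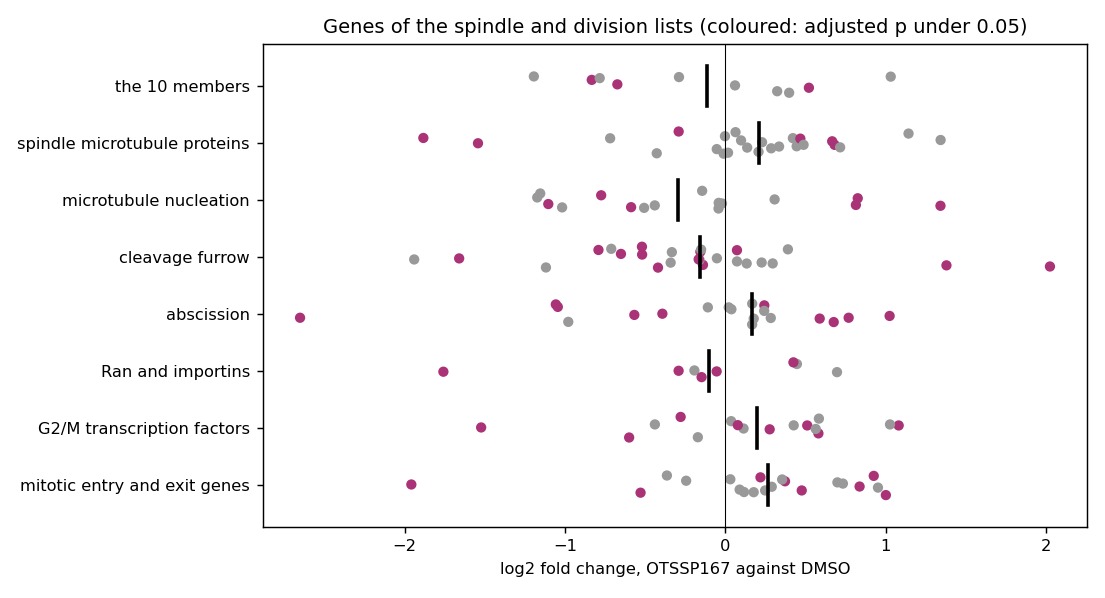
Log2 fold change of OTSSP167 against DMSO for the 10 members and for each tested gene of 7 related lists (points, purple where adjusted p was under 0.05), with black bars for medians. Each list holds genes on both sides of 0, and the medians lie between -0.29 and 0.27.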

How the data were processed

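Per the labels' protocols, total RNA was extracted with TRIzol and used for mRNA libraries (SMARTER kit). The deposited table holds the authors' whole-number counts per gene symbol for 6 libraries. Per the submitters' processing notes, FastQC 0.11.2, HISAT2 2.1.0 and StringTie 1.3.5 were used with GRCh38.p13. The annotation, the strand setting and the step that made the counts remain not given in the sources used.

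Each column was assigned to the sample whose group and number it names, and for 58 repeated symbols the larger row kept the name. Replicates differed by a chi-square per gene of 93.2 to 110.4 (1 is sampling noise), and all 6 libraries were kept. Counts were analysed across all genes with edgeR 4.0.16 in R 4.3.3 (filterByExpr, TMM, robust quasi-likelihood F test, Benjamini-Hochberg threshold 0.05, glmTreat at 1.5-fold). The SE is the log2 fold change over the square root of F. The edgeR test was checked on simulated counts with known changes. Exon length is the union of protein-coding exons in GENCODE 29 (GRCh38).

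Alternatives were DESeq2 1.42.0, limma-voom 3.58.1, 3 other scalings, 2 other low-count filters, a replicate block, and each library left out. The members and lists were chosen with earlier results of these data known. Genes named from lists are the 2 called genes of smallest p in the more frequent direction and 1 in the other, with partner genes and FOXM1, MYBL2 and LIN54. Some marker genes of the lists are not reported here.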

Additional observations from a re-analysis of the deposited data

How the results depend on the processing

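The same 3 members, HMMR, ECT2 and PRC1, were called with DESeq2, limma-voom, DESeq2 size factors, library size only, both other filters and the replicate block. With upper-quartile scaling, which moved the median of all genes from 0.01 to 0.11, 1 member was lower instead of 2. With single libraries left out, 0 to 2 members were higher and 1 to 2 lower. The count past 1.5-fold was 0 in all 12 edgeR alternatives, and DESeq2 and limma-voom were not run on that question. The count of all genes called ran from 4887 with the replicate block to 8000 with DESeq2. With libraries left out it ran from 5512 to 5834, against 6638.

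Estimates that changed sign belonged to transcripts that did not pass. NUSAP1 was -0.0357 in limma-voom, -0.0751 with the replicate block and -0.22 to 0.41 with libraries left out. ASPM was 0.46 in limma-voom, 0.35 with the replicate block and -0.81 to 0.87 with libraries left out. For RACGAP1 to KIF23 the OTSSP167 minus DMSO difference in mean log2 ratio ran from -0.37 to 0.55 with libraries left out. For TPX2 to AURKA that difference ran from -0.25 to 0.74, and both differences were negative without OTSSP167 replicate 3. The cause was not tested.

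Replicate numbers carried little shared deviation. The correlations of same-numbered libraries across genes were 0.0237, 0.0360 and 0.0262, although each library correlated best with its own number. The block changed no member's call. Among the genes named from lists, RBBP4 did not pass with the replicate block (adjusted p = 0.0532), and with that block 1 of the 16 G2/M factor genes rose instead of 5.

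Counts in the lists depended more on the setting. Over the alternatives, 5 to 11 genes of mitotic entry and exit rose, 2 to 5 of the cleavage furrow rose and 6 to 11 fell, and 1 to 6 of the G2/M factors rose and 2 to 3 fell. In abscission 3 to 7 rose and 3 to 6 fell, among spindle microtubule proteins 3 to 5 rose, in nucleation 2 to 3 rose and 2 to 5 fell, and among Ran genes 1 to 2 rose and 2 to 4 fell.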
